A study of Homo sapiens with 12 samples.

Results

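The miR-125 family was followed in the small RNA of extracellular vesicles (EV) collected along the differentiation of human induced pluripotent stem cells (hiPSC) into cardiomyocytes. Its members were the rows of the deposited miRNA count table for hsa-miR-125a-5p and hsa-miR-125b-5p together with the 3p arms miR-125a-3p, miR-125b-1-3p and miR-125b-2-3p. All 5 arms were present among the 1133 miRNA of the table. The family was selected on the higher level of both 5p arms in EV of cardiomyocytes than in EV of hiPSC, a rise already known from these same libraries. The levels and fold changes of the 5p arms are therefore given as a description with no test.

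All 12 libraries came from the established hiPSC line iPS(IMR90)-4, from conditioned medium of 3 independent cultures in each of 4 groups, so that differences between donors or lines were not sampled. hiPSC-EV were collected at day 0 from undifferentiated cells in expansion medium after 24 h. CPC-EV (cardiac progenitor cells) were collected at day 6 after 72 h in differentiation medium, with cells directed by Wnt activation (CHIR99021, with Activin A and ascorbic acid) and then Wnt inhibition (IWR1), which the later groups had received too. CMi-EV (immature cardiomyocytes) were collected at day 15 after 48 h, from aggregates in maintenance medium with B27. CMm-EV (more mature cardiomyocytes) were collected at day 35 after 48 h, from aggregates in medium without glucose that held galactose, oleic acid and palmitic acid. The cells of hiPSC-EV and CPC-EV grew as monolayers, and the aggregates of the later groups were kept in agitated suspension. Culture format thus changed between CPC-EV and CMi-EV. Stage, medium, culture format and length of conditioning changed together and cannot be told apart in this design. No measure of miRNA copies per vesicle was available here, so that every level is relative to the other miRNA of the library, and fewer secreting cells of a type cannot be told apart from less RNA per cell.

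miR-125 is the vertebrate counterpart of lin-4, the miRNA that times larval development in the nematode. A mature miRNA is cut from one side of a hairpin precursor, the 5p or the 3p arm, and recognises messenger RNA mainly through its seed, here bases 2 to 8. In the human genome the miR-125 precursors lie beside precursors of the miR-99/miR-100 family and of let-7, another developmental timer whose maturation is blocked by the LIN28 proteins of pluripotent cells. LIN28A messenger RNA is in turn a known target of both miR-125 and let-7.

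The mature sequences of the members are shown because the 5p arms share a seed while the 3p arms tell the miR-125b precursors apart. They were taken from RefSeq on GRCh38.p14, where all 5 members were found, and the capitals mark the seed.
hsa-miR-125a-5p: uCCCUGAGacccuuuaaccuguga
hsa-miR-125b-5p: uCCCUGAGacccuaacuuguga
hsa-miR-125a-3p: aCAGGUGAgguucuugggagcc
hsa-miR-125b-1-3p: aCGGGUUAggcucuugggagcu
hsa-miR-125b-2-3p: uCACAAGUcaggcucuugggac

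The 5p arms had the same first 13 and last 5 bases and differed in between, with 24 bases in miR-125a-5p and 22 in miR-125b-5p. Of 2370 mature miRNA of the reference, 3 carried this seed, the third being miR-4319, which has no row in the count table used here. The 3p arms each had a seed of their own. miR-125b-5p is cut with an identical sequence from 2 precursors, so its counts cannot be assigned to either, whereas miR-125b-1-3p and miR-125b-2-3p belong to a single precursor each.

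The precursors lie in 3 clusters, given on hg38 with GENCODE v44. MIR125A (chr19:51693254-51693339, plus strand) overlaps an exon of SPACA6 in part and lies within 728 bases together with MIR99B and MIRLET7E. MIR125B1 (chr11:122099757-122099844, minus strand) is intronic in the long noncoding RNA MIR100HG, which also holds MIR100 and MIRLET7A2 over 52552 bases. MIR125B2 (chr21:16590237-16590325, plus strand) lies in an exon of MIR99AHG, in a cluster of 51237 bases with MIR99A and MIRLET7C. The 5p arms of the neighbours that were near-identical to each other are shown next, since reads with an error or a trimmed end could be assigned to the wrong one.
hsa-miR-99a-5p: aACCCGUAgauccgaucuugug
hsa-miR-100-5p: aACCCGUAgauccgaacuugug
hsa-let-7a-5p: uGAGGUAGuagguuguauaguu
hsa-let-7c-5p: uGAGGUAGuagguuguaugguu
hsa-let-7e-5p: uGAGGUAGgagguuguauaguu

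miR-99a-5p and miR-100-5p differed at 1 of 22 bases, and so did let-7a-5p and let-7c-5p, and let-7a-5p and let-7e-5p. let-7a-5p is also cut from precursors on other chromosomes, so that its level is not that of the chromosome 11 cluster alone.

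The counts on miRNA ranged from 703418 to 5598296 per hiPSC-EV library and from 1539043 to 3380609 for CPC-EV. The libraries of CMi-EV held from 1364736 to 2163511 counts and those of CMm-EV from 984868 to 6272456. All 60 counts of the members were whole numbers. A count of 0 allows up to 3 counts, that is between 0.478 and 4.26 CPM (counts scaled to a common library total) depending on the library, and covers counting error only. The labels of the groups were checked with marker miRNA. The summed level of 6 pluripotency miRNA (miR-302/367 and miR-371a) fell from between 171853 and 210180 CPM in hiPSC-EV to between 110.0 and 302.4 CPM in CMm-EV, where miR-367-3p and miR-371a-3p had no count. The 5 cardiomyocyte miRNA (miR-1, miR-133a, miR-208a, miR-208b and miR-499a) had a count in every CMm-EV library and summed to between 37725 and 208254 CPM there. In hiPSC-EV they summed to between 44.1 and 68.0 CPM, with miR-208b-3p absent from the counts.

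hsa-miR-125a-5p rose at each stage and became one of the most abundant miRNA in cardiomyocyte EV. It held 0.768, 0.764 and 0.598% of the miRNA counts in the 3 hiPSC-EV libraries and 3.05, 2.45 and 4.92% in CPC-EV. The share was 5.56, 6.42 and 6.68% in CMi-EV and 13.6, 13 and 12.9% in CMm-EV. The 4 groups did not overlap, and among all miRNA it ranked between 20 and 24 in hiPSC-EV and between 2 and 3 in CMm-EV.

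On the scale of TMM (trimmed mean of M-values) CPM, with factors from all 12 libraries, miR-125a-5p measured 7013 ± 684 (SD, n = 3) in hiPSC-EV and 22788 ± 4644 in CPC-EV. It measured 58671 ± 6703 in CMi-EV and 212157 ± 47795 in CMm-EV.

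Pairwise fits with edgeR were each scaled on their own 6 libraries, and there it was 4.39-fold higher in CPC-EV than in hiPSC-EV (log2 fold change 2.13, SE 0.21). It was 2.54-fold higher in CMi-EV than in CPC-EV (log2 fold change 1.35, SE 0.20) and 3.25-fold higher in CMm-EV than in CMi-EV (log2 fold change 1.70, SE 0.26). From end to end it was 24.4-fold higher in CMm-EV than in hiPSC-EV. Scaled by library size alone, the step from CPC-EV to CMi-EV measured 0.84 on the log2 scale, below the fold threshold of 1. The step from CMi-EV to CMm-EV measured 1.08 with that scaling.

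hsa-miR-125b-5p was scarce in hiPSC-EV and CPC-EV and had the largest of its 3 steps between CPC-EV and CMi-EV. It had 266, 834 and 1437 counts in the hiPSC-EV libraries, which is 0.0378, 0.0332 and 0.0257% of the miRNA counts. In CPC-EV the share was 0.114, 0.0797 and 0.278%, the highest being replicate 3. The shares reached 3.71, 4.57 and 5.57% in CMi-EV and 4.91, 4.10 and 3.43% in CMm-EV. On this scale CMi-EV and CMm-EV overlapped while the earlier groups did not.

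The TMM-normalized level was 315.6 ± 13.8 CPM (SD, n = 3) in hiPSC-EV and 997.8 ± 512 in CPC-EV. It was 43676 ± 10228 CPM in CMi-EV and 65149 ± 5617 in CMm-EV. Its rank moved from between 93 and 115 in hiPSC-EV to between 6 and 9 in CMi-EV and between 6 and 7 in CMm-EV. In the pairwise fits it was 4.31-fold higher in CPC-EV than in hiPSC-EV (log2 fold change 2.11, SE 0.39) and 42.9-fold higher in CMi-EV than in CPC-EV (log2 fold change 5.42, SE 0.36).

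The last step of miR-125b-5p was small and its direction depended on the scaling. The log2 fold change of CMm-EV over CMi-EV was 0.42 (SE 0.23) with TMM and -0.16 with library size alone. From hiPSC-EV to CMm-EV it was 168-fold higher (log2 fold change 7.39, SE 0.22). Together the 5p arms made up 0.742% ± 0.103 of the miRNA counts in hiPSC-EV and 3.63% ± 1.39 in CPC-EV (SD, n = 3). Their sum was 10.8% ± 1.5 in CMi-EV and 17.3% ± 1.09 in CMm-EV.

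**Figure D1:**
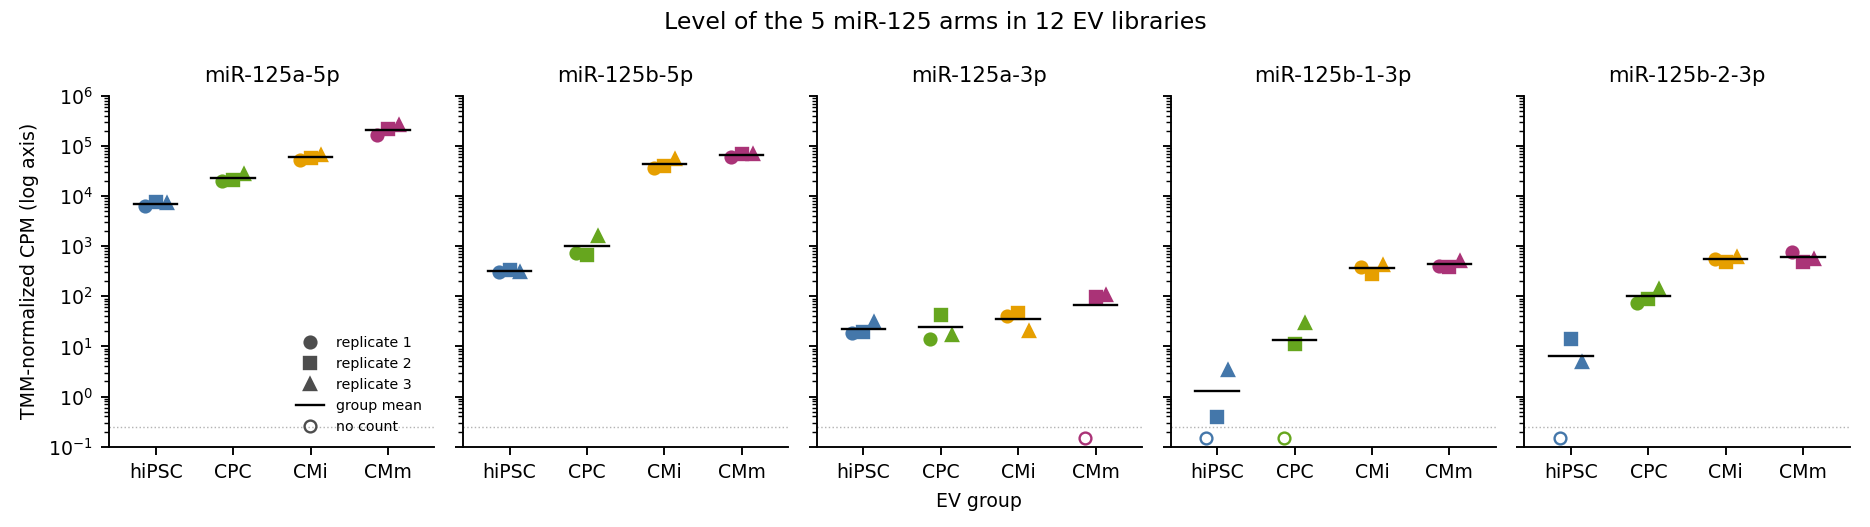
TMM-normalized CPM (log axis) of the 5 miR-125 arms in the 4 EV groups, with a marker shape for each replicate number, a bar for the mean of 3 libraries and open symbols below the dotted line for libraries without a count. miR-125a-5p climbs from a mean of 7013 to 212157 CPM over the 4 groups, miR-125b-5p jumps from 997.8 CPM in CPC-EV to 43676 CPM in CMi-EV, and no group mean of a 3p arm exceeds 602.8 CPM.

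The ratio of the 5p arms within a library does not depend on scaling, and is described with no test, since both arms were selected on their rise. In hiPSC-EV, 20.3, 23 and 23.3 counts of miR-125a-5p were found for each count of miR-125b-5p. The ratio was 26.7, 30.8 and 17.7 in CPC-EV, where it overlapped with hiPSC-EV. It dropped to 1.5, 1.41 and 1.2 in CMi-EV and was 2.76, 3.18 and 3.75 in CMm-EV, so that miR-125a-5p remained the more abundant arm in all 12 libraries.

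On the log2 scale the ratio fell by 4.16 (SE 0.26) between CPC-EV and CMi-EV and was higher by 1.24 (SE 0.16) in CMm-EV than in CMi-EV. At the earliest step, to CPC-EV, its difference was 0.14 (SE 0.25), less than the spread between the CPC-EV replicates.

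The 3p arms were far scarcer than the 5p arms, and each of those of miR-125b belongs to a single locus. Their counts do not give the output of a precursor, since the balance of 5p and 3p counts of miR-125b, given below, differed between groups. miR-125b-2-3p, from the chromosome 21 precursor, had 0, 36 and 23 counts in hiPSC-EV and 191, 350 and 370 in CPC-EV. It reached 1248, 925 and 820 counts in CMi-EV and 629, 1830 and 1418 in CMm-EV. The fitted log2 fold change of CPC-EV over hiPSC-EV was 4.39 (SE 1.06). It was called higher in CMi-EV than in CPC-EV (log2 fold change 2.44, SE 0.32, edgeR FDR 0.00209).

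The earlier step is given with no p, because the arm passed the filter of 5 CPM there only through CPC-EV, where it was high. It rested on few hiPSC-EV counts, and the log2 fold change was 5.57 without hiPSC-EV replicate 2.

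miR-125b-1-3p, from the chromosome 11 precursor, had 0, 1 and 16 counts in hiPSC-EV and 0, 46 and 80 in CPC-EV. Its counts were 873, 519 and 589 in CMi-EV and 336, 1479 and 1285 in CMm-EV. It was not tested between hiPSC-EV and CPC-EV, since it did not reach 5 CPM in all libraries of either group. Between CPC-EV and CMi-EV the fitted log2 fold change was 4.72 (SE 1.19), given with no p for the same reason, since the arm passed the filter only through CMi-EV. It was 4.13 without CPC-EV replicate 1 and 5.98 without CPC-EV replicate 3.

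The 3p arms were then set against each other within a library. In CPC-EV, miR-125b-2-3p made up 100% (95% Wilson interval 98.0 to 100%), 88.4% (84.9 to 91.2%) and 82.2% (78.4 to 85.5%) of the 3p counts of miR-125b. In CMi-EV it made up 58.8% (56.7 to 60.9%), 64.1% (61.5 to 66.5%) and 58.2% (55.6 to 60.7%). The shares in CMm-EV were 65.2% (62.1 to 68.1%), 55.3% (53.6 to 57.0%) and 52.5% (50.6 to 54.3%). The CPC-EV libraries thus lay above all 6 cardiomyocyte libraries, whereas CMi-EV and CMm-EV overlapped. hiPSC-EV held too few counts to compare, 37 and 39 in replicates 2 and 3 and none in replicate 1. Intervals cover counting error only, and because some libraries had 3 or fewer counts of an arm, this ratio was not tested.

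miR-125a-3p stayed scarce throughout. It had 16, 48 and 141 counts in hiPSC-EV and 37, 171 and 46 in CPC-EV. Its counts were 91, 88 and 28 in CMi-EV and 0, 369 and 272 in CMm-EV, so that the groups overlapped. None of the 3 steps was called, with log2 fold changes of 0.50 (SE 0.81), 0.57 (SE 0.86) and 0.82 (SE 1.46) and edgeR FDR of 0.707, 0.659 and 0.721. Without CPC-EV replicate 2, the steps to and from CPC-EV were 0.03 and 1.19. The last step was 1.42 without CMm-EV replicate 1 and 0.03 with the replicate number as a block. All of these were uncalled. The 0 in CMm-EV replicate 1, the shallowest library of its group, allows up to 3.05 CPM. With that library left out, the log2 fold change from hiPSC-EV to CMm-EV moved from 1.26 to 2.15 and passed the threshold for a call, which it did not with all libraries. It was 0.76 with library size and 0.25 with the replicate number as a block, both uncalled.

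Between CMi-EV and CMm-EV neither 3p arm of miR-125b was called, with log2 fold changes of 0.11 (SE 0.32, edgeR FDR 0.842) for miR-125b-1-3p and -0.02 (SE 0.26, edgeR FDR 0.973) for miR-125b-2-3p. From hiPSC-EV to CMm-EV they were higher by 7.69 (SE 0.91) and 6.13 (SE 0.93) on the log2 scale. Both rested on few hiPSC-EV counts, and moved to 10.07 for miR-125b-1-3p without hiPSC-EV replicate 3 and to 7.28 for miR-125b-2-3p without hiPSC-EV replicate 2.

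The balance of the 5p and 3p arms was also compared, with no test. For miR-125b there were 10.0, 6.79 and 9.48 counts of the 5p arm for each count of its 3p arms in CPC-EV. In hiPSC-EV there were 22.3 and 36.4 in replicates 2 and 3, while replicate 1 had no 3p count. In CMi-EV there were 37.9, 53.4 and 54.0, and in CMm-EV 50.0, 77.8 and 64.3. All 3 CPC-EV libraries lay below these hiPSC-EV libraries and below the 6 cardiomyocyte libraries, by 2.47 (SE 0.24) on the log2 scale between CPC-EV and CMi-EV. For miR-125a the ratio of 5p to 3p counts was 328, 396 and 237 in hiPSC-EV, then 1368, 483 and 1627 in CPC-EV, and for CMi-EV 1315, 1224 and 3201. It was 2215 and 2394 in CMm-EV replicates 2 and 3, while replicate 1 had no 3p count.

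Read against all tested miRNA, 3 of the 4 members tested between hiPSC-EV and CPC-EV were called higher, beside 11.5% of 338 miRNA (median log2 fold change -0.27). Calls were made at an FDR up to 0.05 and a log2 change of 1 or more in size. Between CPC-EV and CMi-EV, 4 of 5 members were called higher, beside 14.4% of 292 miRNA (median -0.05). Between CMi-EV and CMm-EV it was 1 of 5 members, beside 6.48% of 247 miRNA (median -0.30), and between hiPSC-EV and CMm-EV 4 of 5, beside 16.1% of 336 miRNA (median -1.53). These counts hold the 5p arms that were selected on their rise and 3p arms that passed the filter only through the group where they were high, so nothing is read from them.

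Of 12 listed arms of the neighbouring precursors, 9 had a row in the table. In the chromosome 19 cluster, miR-99b-5p was compared with miR-125a-5p. It held 1.9% ± 0.11 (SD, n = 3) of the miRNA counts in hiPSC-EV and 8.62% ± 2.15 in CPC-EV. The share was 11.9% ± 2.11 in CMi-EV and 11.9% ± 2.44 in CMm-EV. It was called higher in CPC-EV than in hiPSC-EV (log2 fold change 2.02, SE 0.19, edgeR FDR 0.000482). The later steps were not called, with log2 fold changes of 0.97 (SE 0.24, edgeR FDR 0.0234), just under the fold threshold, and 0.67 (SE 0.38, edgeR FDR 0.301). The step from CPC-EV to CMi-EV depended on the libraries and the scaling. It was called without CMi-EV replicate 2 or 3 (log2 fold changes of 1.11 and 1.02, edgeR FDR 0.0226 and 0.0347), while it was 0.73 without CMi-EV replicate 1 and 0.46 with library size (edgeR FDR 0.0491 and 0.267), and 0.88 without CPC-EV replicate 1 (edgeR FDR 0.0849).

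For each count of miR-99b-5p there were 0.391, 0.431 and 0.305 counts of miR-125a-5p in hiPSC-EV, and 0.391, 0.351 and 0.445 in CPC-EV. The ratio was 0.390, 0.624 and 0.607 in CMi-EV and 1.5, 0.975 and 0.979 in CMm-EV. In CMi-EV, 2 of 3 libraries lay above all those of hiPSC-EV and CPC-EV. The CMm-EV libraries lay above all others, with a log2 ratio higher by 1.09 (SE 0.30) than in CMi-EV. The ratios of a member to a neighbour are given without a test, since the members were selected on their rise.

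The third miRNA of that cluster, let-7e-5p, had its larger steps later. It had 0, 64 and 126 counts in hiPSC-EV and 67, 107 and 189 in CPC-EV. The counts were 1121, 698 and 807 in CMi-EV and 7681, 33623 and 27212 in CMm-EV. Between hiPSC-EV and CPC-EV the fitted log2 fold change was 1.72 (SE 1.30). No p is given there, since let-7e-5p passed the filter only through CPC-EV. This value was 1.00 without CPC-EV replicate 3 and 1.12 without hiPSC-EV replicate 1. let-7e-5p was called higher in CMi-EV than in CPC-EV (log2 fold change 3.54, SE 0.48, edgeR FDR 0.00294, and 4.16 without CPC-EV replicate 3). It was also called higher in CMm-EV than in CMi-EV (log2 fold change 4.16, SE 0.22, edgeR FDR 5.45e-05). Even so, miR-125a-5p outnumbered it 17.4, 24.3 and 24 to 1 in CMm-EV. miR-99b-3p was called in none of the 4 comparisons with edgeR (log2 fold changes from -1.27 to 1.35).

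In the chromosome 11 cluster, miR-100-5p had its largest step where miR-125b-5p had, between CPC-EV and CMi-EV. It held 0.187% ± 0.0291 of the miRNA counts in hiPSC-EV and 0.306% ± 0.152 in CPC-EV (SD, n = 3). This became 22.7% ± 3.65 in CMi-EV and 25.6% ± 2.54 in CMm-EV. It ranked the highest of all miRNA in each of the 6 cardiomyocyte libraries. It was not called between hiPSC-EV and CPC-EV (log2 fold change 0.53, SE 0.31, edgeR FDR 0.266) and was 108-fold higher in CMi-EV than in CPC-EV (log2 fold change 6.75, SE 0.31, edgeR FDR 0.000198).

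Per count of miR-100-5p there were 0.176, 0.211 and 0.136 counts of miR-125b-5p in hiPSC-EV. The ratio was 0.458, 0.420 and 0.581 in CPC-EV, above all other libraries, then 0.157, 0.245 and 0.216 in CMi-EV and 0.210, 0.145 and 0.136 in CMm-EV. Between CPC-EV and CMi-EV the log2 ratio fell by 1.25 (SE 0.24), as miR-100-5p rose by the larger factor.

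In the chromosome 21 cluster, miR-99a-5p rose already in CPC-EV. Its counts were 25, 94 and 185 in hiPSC-EV and 2333, 2463 and 6018 in CPC-EV, which is 48.7-fold higher (log2 fold change 5.61, SE 0.51, edgeR FDR 0.000689). Without CPC-EV replicate 3, the highest of its group, the log2 fold change was 4.86. It rose again in CMi-EV (log2 fold change 4.88, SE 0.49, edgeR FDR 0.00114), to 3.93% ± 0.746 of the miRNA counts (SD, n = 3). This step was 5.55 without CPC-EV replicate 3. The chromosome 11 and chromosome 21 neighbours of miR-125b therefore differed at the step to CPC-EV, where miR-99a-5p was called and miR-100-5p was not. A test of that difference itself was not made.

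Per count of miR-99a-5p there were 10.5, 8.83 and 7.75 counts of miR-125b-5p in hiPSC-EV, against 0.824, 1.09 and 0.710 in CPC-EV. The ratio stayed between 0.791 and 1.74 in CMi-EV and between 1.27 and 1.48 in CMm-EV. Since the 5p arm of miR-125b comes from both loci, this ratio does not give the output of the chromosome 21 precursor alone.

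Of the other let-7 neighbours, let-7a-5p fell from hiPSC-EV to CPC-EV (log2 fold change -2.34, SE 0.27, edgeR FDR 0.00102), beside 16% of the 338 tested miRNA called lower. It was higher in CMm-EV than in CMi-EV (log2 fold change 4.91, SE 0.32, edgeR FDR 0.000189). let-7c-5p had 0, 0 and 2 counts in hiPSC-EV and 0, 0 and 1 in CPC-EV, at or under the detection limit, then 97, 194 and 68 in CMi-EV and 1552, 6377 and 10438 in CMm-EV. It was called higher in CMm-EV than in CMi-EV (log2 fold change 5.16, SE 0.48, edgeR FDR 0.00103). The let-7 miRNA of all 3 clusters (let-7a-5p being cut elsewhere too) were thus called higher at the last step, beside 6.48% of 247 miRNA. Of miR-99b-5p, miR-100-5p and miR-99a-5p none was called there with edgeR, and with library-size scaling the steps of miR-99b-5p and miR-99a-5p turned negative. The difference between the let-7 and miR-99/miR-100 families was not tested.

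**Figure D2:**
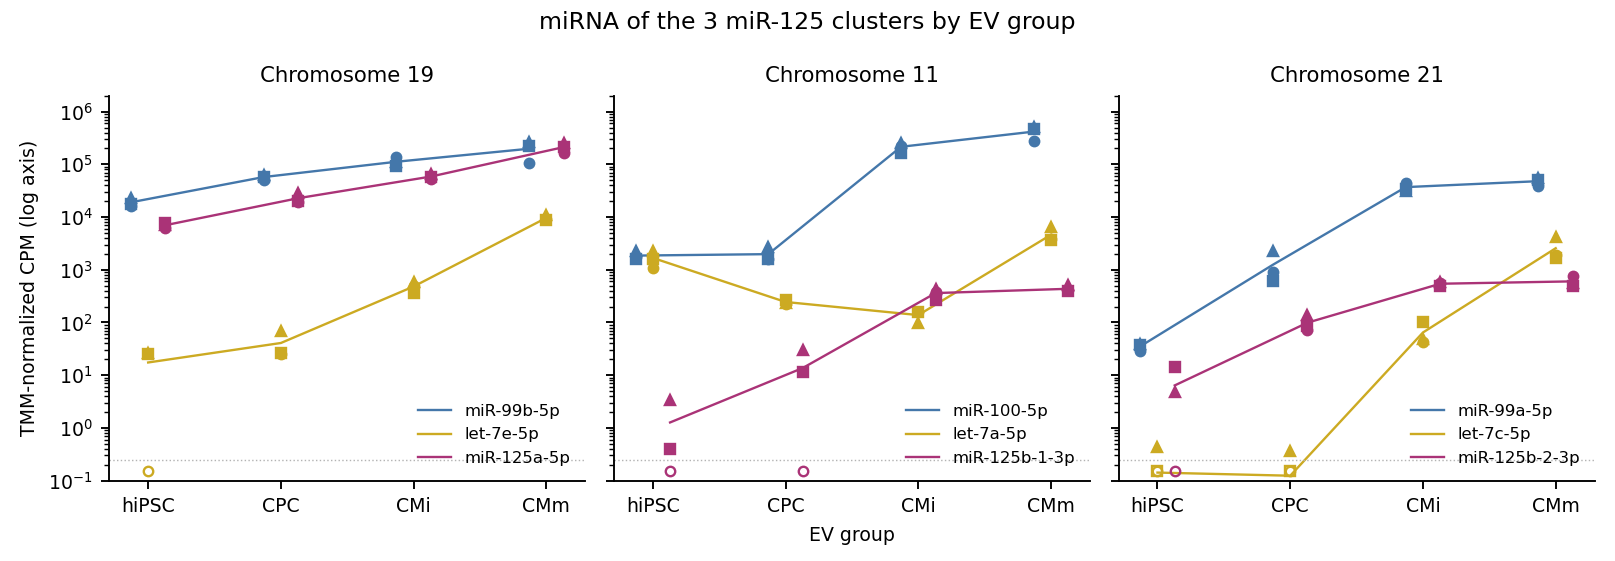
TMM-normalized CPM (log axis) of the miRNA of each cluster by EV group, with a marker shape for each replicate number, lines through the group means and open symbols below the dotted line for libraries without a count. On chromosome 21 miR-99a-5p is higher in CPC-EV than in hiPSC-EV by 5.61 on the log2 scale, on chromosome 11 miR-100-5p has means of 1858 CPM in hiPSC-EV and 1980 CPM in CPC-EV, and the let-7 miRNA of all clusters have their highest mean in CMm-EV.

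The members and their cluster neighbours together came to take up much of the miRNA counts. Over 14 rows, they held 3.01% ± 0.12 (SD, n = 3) in hiPSC-EV and 12.8% ± 3.88 in CPC-EV. They held 49.5% ± 4.75 in CMi-EV and 58.9% ± 3.69 in CMm-EV. The single CMm-EV libraries held 55.5, 62.9 and 58.4%. The scaling moved the median of all tested miRNA, whose log2 fold change from CMi-EV to CMm-EV was -0.91 with library size and -0.30 with TMM.

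**Figure D3:**
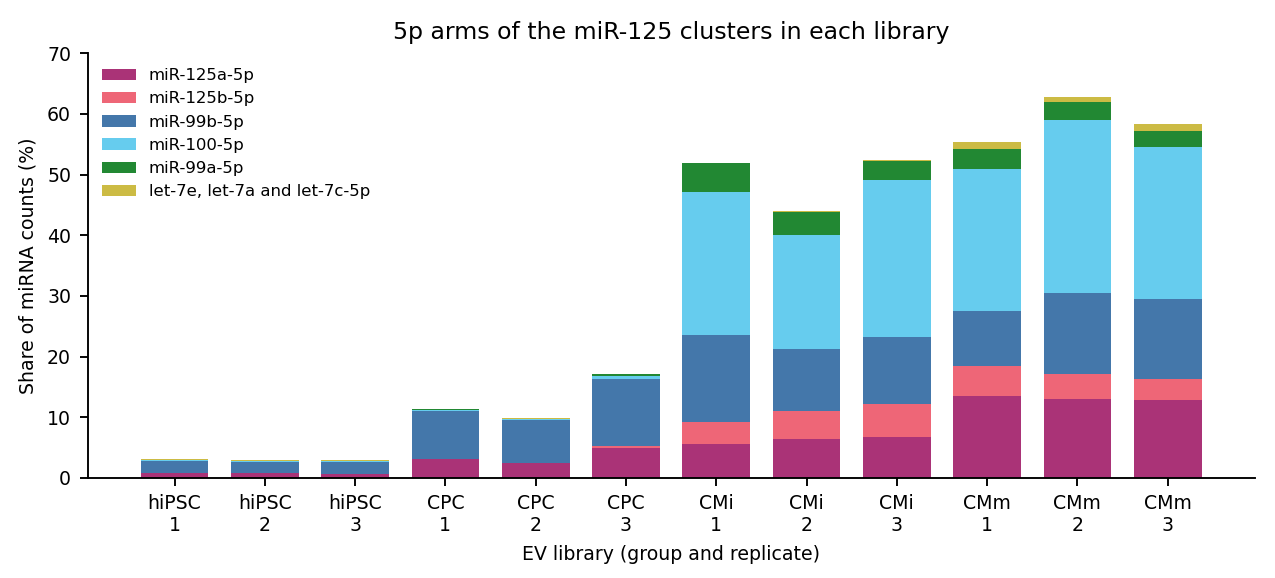
Share of the miRNA counts (%, stacked bars) held by the 5p arms of the 3 clusters in each of the 12 EV libraries. With all 14 rows counted the libraries hold from 2.90 to 3.14% in hiPSC-EV, from 9.84 to 17.2% in CPC-EV and from 44 to 62.9% in the cardiomyocyte groups, where miR-100-5p holds the largest part of each bar.

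**Figure D4:**
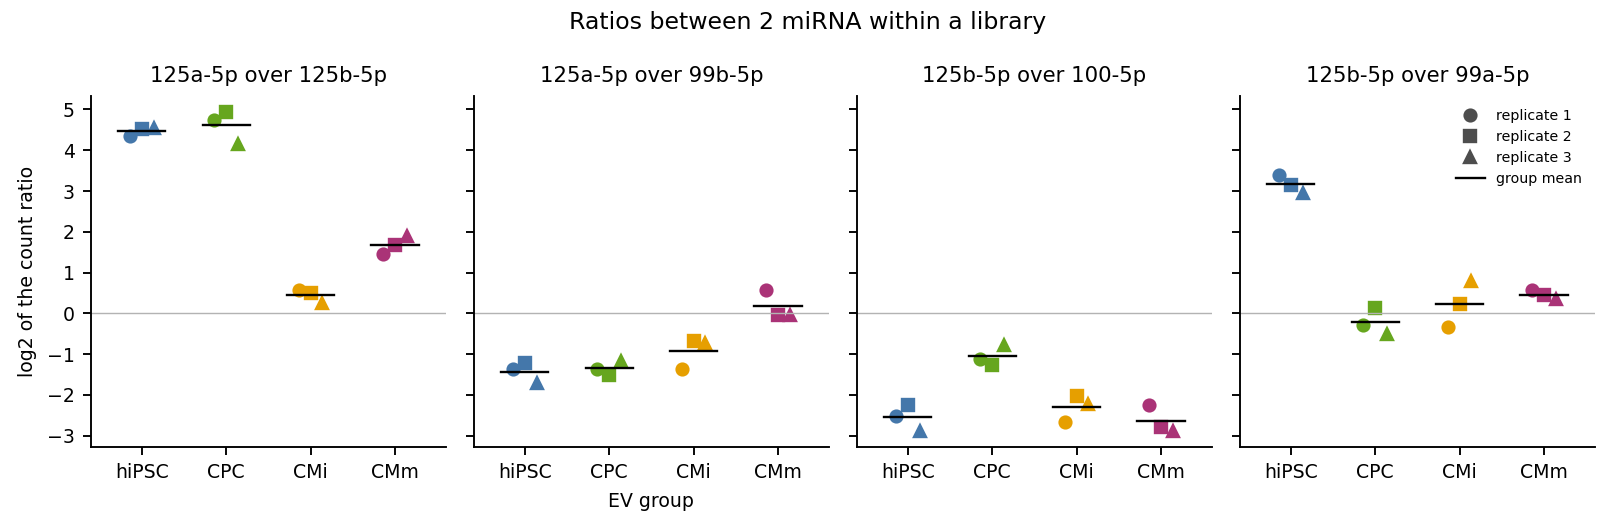
Log2 of the ratio of counts between 2 miRNA of the same library, by EV group, with a marker shape for each replicate number and a bar for the mean of 3 libraries. The ratio of miR-125a-5p to miR-125b-5p dropped by 4.16 between CPC-EV and CMi-EV, and that of miR-125b-5p to miR-99a-5p dropped by 3.38 between hiPSC-EV and CPC-EV.

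The miRNA whose pattern was most like that of each 5p arm were taken by Pearson's r of log2(TMM-normalized CPM + 1) over the 12 libraries, among 367 expressed miRNA. For miR-125a-5p they were miR-143-3p (r = 0.984), miR-24-3p (0.982), miR-99b-5p (0.961), miR-143-5p (0.956) and let-7e-5p (0.954). For miR-125b-5p they were miR-181a-2-3p (0.987), miR-100-5p (0.985), miR-143-3p (0.973), miR-133a-3p (0.968) and miR-99a-5p (0.965). Cluster neighbours were among the 5 for both arms on this measure, but it depended on the measure. With library-size CPM neither miR-99b-5p nor let-7e-5p remained for miR-125a-5p, and by Spearman's rho no neighbour remained for either arm. Pearson's r between the members themselves was 0.933, and by Spearman's rho (0.986) each was at the top of the other's list, for miR-125a-5p level with miR-143-3p. The libraries share their groups, and these values describe the likeness of a course over 4 stages.

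miR-143-3p, a miRNA of smooth muscle and other mesenchymal cells, measured 305.6 ± 119 CPM (SD, n = 3) in hiPSC-EV and 2889 ± 1277 in CPC-EV. It measured 42457 ± 15348 CPM in CMi-EV and 167055 ± 36237 in CMm-EV. Of 4 smooth muscle and fibroblast markers, 3 had a row, and their summed level went from between 236.9 and 477.3 CPM in hiPSC-EV to between 33386 and 60784 in CMi-EV and between 132616 and 205109 in CMm-EV. This sum was nearly all miR-143-3p, the miRNA named above for its likeness, which held 131999 of 132616 CPM in the CMm-EV library with the lowest sum. miR-214-3p was without counts in all 6 libraries of the earlier groups. The cardiomyocyte list moved the same way, to between 20749 and 75565 CPM in CMi-EV. The part of either cell type in the rise of miR-125 was not tested. The 2 endothelial markers summed to between 0 and 115 CPM in all libraries. The endoderm and liver list, with 4 of 4 markers in the table, summed to between 1302 and 2251 CPM in hiPSC-EV and to between 6304 and 8865 in CPC-EV, the step at which the 5p arms were 4.39-fold and 4.31-fold higher. It summed to between 3470 and 7218 CPM in CMi-EV and between 2243 and 4459 in CMm-EV, and its part in the result was not tested. The blood list was highest in hiPSC-EV, between 5307 and 8684 CPM.

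The transcripts that carry the precursors were read in the table of gencode fragments, in which 3 of 10 listed host and precursor rows were found. MIR100HG, the host of the chromosome 11 cluster, had 1, 8 and 6 counts in hiPSC-EV and 7, 16 and 11 in CPC-EV. It had 6, 3 and 2 counts in CMi-EV and 2, 4 and 3 in CMm-EV. Its mean was 5.34 ± 3.70 CPM in hiPSC-EV and 12.0 ± 3.14 CPM in CPC-EV (SD, n = 3). It was 9.54 ± 3.75 CPM in CMi-EV and 12.6 ± 2.52 CPM in CMm-EV. With counts this low, no test between the groups is given. The row named SPACA6 had 5 counts in hiPSC-EV replicate 3 and the row named SPACA6P 15 in CMi-EV replicate 1, with none elsewhere. The annotation version behind these rows is not given in the sources used here, so whether both names stand for the host on chromosome 19 is not known.

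LIN28A, the RNA-binding protein that blocks let-7 maturation, had the most counts in hiPSC-EV among the listed targets. It had 69, 131 and 324 counts there and 98, 432 and 405 in CPC-EV. Its counts were 48, 10 and 2 in CMi-EV, and the 3 CMm-EV libraries had none. Pooled over the libraries of a group, it was at least 42.8-fold lower in CMm-EV than in hiPSC-EV, against a limit of 3 counts over the CMm-EV group. No p is given, since it passed the filter only through hiPSC-EV. Most tested gencode features moved the same way, and 43.5% of 2153 tested features were called lower in the same comparison (median log2 fold change -2.18).

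A match to the shared 5p seed is shown for LIN28A because it lies in the part of the transcript where miRNA bind. The letters CTCAGGGA, the complement of bases 2 to 8 followed by A, were searched on the transcript strand in the 3′ untranslated region of the canonical transcript and were found once, from base 801 of 3270. With its surroundings it lies at chr1:26427248-26427277 (hg38, plus strand, GENCODE v44), with the match in capitals.
LIN28A: acatgagcaatCTCAGGGAtagccagcagc

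The same letters were present in 8.69% of 3085 canonical transcripts, each read over as many bases of its untranslated region. A match is a description of the sequence, and no binding was measured here.

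Of 17 listed miR-125 targets, 16 had a row among the gencode fragments, which are counted per gene and transcript class, and the protein-coding rows are given here. BBC3, which encodes the apoptosis inducer PUMA, had 6, 10 and 16 counts in hiPSC-EV and 1 count in all other libraries together. ERBB2, a receptor tyrosine kinase, went the other way in single libraries, with 6, 5 and 13 counts in hiPSC-EV against 0, 0 and 26 in CMm-EV. BMF, another inducer of apoptosis, had 112 counts in CMm-EV replicate 2 and none in the other CMm-EV libraries. Many of these counts stood in 1 library of a group, so that no count of changed targets is given.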

How the data were processed

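Small RNA from 12 EV preparations (3 independent cultures in each of 4 EV groups) had been sequenced, and per the study's methods the authors ran the exceRpt pipeline 4.6.2 against hg38 and miRBase 21. The deposited tables of expected counts were rounded to whole numbers, which left the members as they were (9.11% of all miRNA values above 0 held fractions). The RPM deposited by the authors, scaled to library totals, served as an alternative level. Members and lists were chosen with earlier results of these data known. The rule for named miRNA took the members, their cluster neighbours, miRNA with the same seed, the 5 most similar to each 5p arm, host transcripts and a list of targets, of which 1 is not reported here.

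Pairs of groups were fitted with the quasi-likelihood test of edgeR 4.0.16 in R 4.3.3 (two-sided, TMM, at least 5 CPM in the 3 libraries of a group, Benjamini-Hochberg over all tested miRNA or gencode features, FDR of 0.05 and log2 fold change of 1). Ratios used a pseudocount of 0.5. The permutation test planned for 4 of 9 ratios is not reported, because it rests on arms selected on their rise. No p is given for features that passed the filter only through the group where they were high. Scripts were tested on simulated data. Replicates differed by more than counting error (chi-square per degree of freedom at least 51.6). No column was left unused (0 unmapped). Alternatives were other scaling, filters and tests (DESeq2 1.42.0), a replicate block and each library left out. Figures used Python 3.11.15 with matplotlib 3.10.9.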

Additional observations from a re-analysis of the deposited data

How the results depend on the processing

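Library size in place of TMM took the step of miR-125a-5p from CPC-EV to CMi-EV to 0.84 on the log2 scale, below the fold threshold, and reversed the steps from CMi-EV to CMm-EV of miR-125b-5p (-0.16), miR-125a-3p (-0.019), miR-125b-1-3p (-0.46), miR-99b-5p (-0.00049) and miR-99a-5p (-0.38), none of which was called. The step of miR-125b-2-3p there, -0.02, turned positive with DESeq2 (0.10), dispersions from all 12 libraries (0.13), filterByExpr (0.010), median-of-ratios scaling (0.10), no filter (0.0019) and scaling without the miR-125 rows (0.020), and stayed uncalled. As log2 ratios of group means, miR-125a-5p measured 1.70 for CPC-EV over hiPSC-EV (2.29 with library size, 2.02 with median-of-ratios), 1.36 for CMi-EV over CPC-EV (0.84 with library size) and 1.85 for CMm-EV over CMi-EV (1.42 with RPM, 1.08 with library size). miR-125b-5p measured 0.58 for CMm-EV over CMi-EV (0.15 with RPM, -0.16 with library size).

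With 1 library left out, the steps of miR-125a-5p from hiPSC-EV to CPC-EV ranged from 1.95 to 2.29, and those of miR-125b-5p from 1.59 to 2.39. The ratio of miR-125b-5p to miR-100-5p between CMm-EV and hiPSC-EV, -0.10 on the log2 scale, ranged from -0.29 to 0.051. miR-125b-1-3p and miR-125b-2-3p ranged from -0.071 to 0.27 and from -0.17 to 0.12 between CMi-EV and CMm-EV, and miR-99b-3p from -0.73 to 0.073 between hiPSC-EV and CPC-EV.

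The labels do not say whether same-numbered replicates of different groups came from the same culture run. The correlations of their deviations lay between -0.121 and 0.0989. These values cannot decide it, since no pairs with different numbers were compared. With the replicate block, calls fell from 93 to 39 between hiPSC-EV and CPC-EV and from 41 to 17 between CMi-EV and CMm-EV, where filterByExpr gave 27. The step of miR-125a-5p from hiPSC-EV to CPC-EV was 2.10 with the replicate block. Without a filter, 68 gencode features were called between hiPSC-EV and CMm-EV in place of 1093, and 2262 without hiPSC-EV replicate 1. Without CMm-EV replicate 2, 20 miRNA were called between CMi-EV and CMm-EV. let-7a-5p, not called between hiPSC-EV and CMm-EV (edgeR FDR 0.0559), was called higher in 11 of its alternatives. Of the miRNA most like miR-125a-5p, 3 of 5 were shared with library-size CPM and 1 with Spearman's rho, and for miR-125b-5p 2 with Spearman's rho. miRNA at few counts, above all the 3p arms, are limited by depth.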
